A study of Mus musculus with 800 samples.

Results

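The 8 genes described here encode the core of the neuronal vesicle fusion machinery: the SNAREs Snap25, Vamp1, Vamp2 and Stx1a, the complexins Cplx1 and Cplx2, and the synaptotagmins Syt1 and Syt2. They were chosen by name, as the entries whose Ensembl identifier maps to these symbols, and all 8 were found among the 32285 genes of the count table. Their levels were followed across cell classes, interneuron kinds and vectors in 800 single nuclei.

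The nuclei came from young adult C57Bl/6J mice that had received 1 of 20 adeno-associated virus vectors with the PHP.eB capsid, which crosses from blood to brain, at 5e11 vector genomes per mouse. Each vector carried its own promoter or enhancer in front of H2B-SYFP2, a yellow fluorescent protein fused to a histone so that it stays in the nucleus, and 40 yellow nuclei per vector were sorted 3 to 4 weeks later and sequenced one by one with SMART-Seq v4, a full-length method that counts reads rather than molecules. The vectors were AiE0078h, AiE0140h, AiE0387m, AiE0390m, AiE0391h, AiE0401h, AiE0410m, AiE0445h_3xC2, AiE0447h, AiE0450h, AiE0452h, AiE0475m, AiE0600m, AiE0682h, AiE0743m_3xC2 and AiE0779m, given as codes without a target cell type, the Dlx-derived DLX2.0 and hI56i, the viral promoter CMV, and hSyn1, a neuronal promoter. No animal is named in the labels, so nuclei of 1 vector were treated as 1 sample, and no vector was tested against another. The p-values weigh a class difference against how much it varies from vector to vector. Because nuclei were sorted for the reporter, each vector also selects which cells could be seen.

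At a synapse, Vamp on the vesicle and Snap25 and Stx1a on the plasma membrane zip into a 4-helix bundle that pulls the membranes together. Complexins bind the partly zipped bundle and hold it ready, and a synaptotagmin on the vesicle senses calcium and triggers fusion. Several of these proteins exist as pairs of paralogs used by different neurons: Syt1 is the calcium sensor of most forebrain synapses, while Syt2 is known from fast synapses of the hindbrain and of parvalbumin interneurons.

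Of the 800 nuclei, 698 had at least 1000 genes with a read. Clustering without the 8 genes gave 245 GABAergic-like nuclei, 160 SPN-like nuclei (with markers of striatal spiny projection neurons), 108 glutamatergic-like, 107 astrocyte-like and 50 oligodendrocyte-like nuclei, and 28 in a cluster left unnamed. Among the interneurons, 125 nuclei were Pvalb-like, 82 were Sst-like and 23 were Lamp5-like, and 15 had no named kind. The SPN-like nuclei go against the labels, which place every nucleus in the anterior lateral motor cortex, although the series also names striatum and visual cortex: they occurred under 16 of the 20 vectors and in 39 of the 100 runs of 8 consecutive title numbers. Comparisons of other classes were therefore also made without these runs. Those with SPN-like nuclei could not be, since leaving these runs out removes every SPN-like nucleus. Within a vector, the sums they compare can come from different runs. The part of run or dissection in their differences was not tested. The library names fall into 4 series, of which S40326 with 408 nuclei and S40324 with 312 nuclei were also fitted alone where they gave a value. Depth had a median of 260170 counts per nucleus (70 to 901264), and class medians lay between 239703 counts in SPN-like and 300655 counts in astrocyte-like nuclei. Levels are given as CPM, the counts of a gene scaled to a total of 1000000 over the summed nuclei of a vector and class, in vectors with at least 3 such nuclei.

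In the mm10 assembly, by GENCODE gene models, the SNARE genes lie on chromosome 2 (Snap25, 136713453 to 136782428, plus strand), chromosome 6 (Vamp1, 125215551 to 125245964, plus strand), chromosome 11 (Vamp2, 69088490 to 69092384, plus strand) and chromosome 5 (Stx1a, 135023482 to 135051100, plus strand). Cplx1 is also on chromosome 5 (108518554 to 108550024, minus strand) and Cplx2 on chromosome 13 (54371349 to 54383917, plus strand). Syt1 spans 108497650 to 109010982 on the minus strand of chromosome 10 and Syt2 spans 134646677 to 134762593 on the plus strand of chromosome 1. Their identifiers in the table are ENSMUSG00000027273 (Snap25), ENSMUSG00000030337 (Vamp1), ENSMUSG00000020894 (Vamp2), ENSMUSG00000007207 (Stx1a), ENSMUSG00000033615 (Cplx1), ENSMUSG00000025867 (Cplx2), ENSMUSG00000035864 (Syt1) and ENSMUSG00000026452 (Syt2).

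The promoters of Syt2, Cplx1 and Stx1a are printed because the class differences in level or in paralog share described below turn on these genes. Each window runs from 250 bases before to 50 bases after a start given by RefSeq (GRCm38.p6, the mm10 assembly), 5′ to 3′ on the gene's strand. Capitals mark GGGCGG, a GC box, or its reverse complement CCGCCC, and GGACAG, part of the binding element of the repressor REST, or its reverse complement CTGTCC.
Syt2, upstream start, chr1:134646362-134646661, plus strand: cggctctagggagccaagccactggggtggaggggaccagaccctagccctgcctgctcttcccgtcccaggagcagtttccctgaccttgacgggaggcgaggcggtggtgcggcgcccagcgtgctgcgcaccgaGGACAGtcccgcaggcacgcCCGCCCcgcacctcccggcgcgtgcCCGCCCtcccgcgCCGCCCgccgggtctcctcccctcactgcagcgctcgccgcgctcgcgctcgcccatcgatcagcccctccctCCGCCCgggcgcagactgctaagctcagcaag
Syt2, downstream start, chr1:134709050-134709349, plus strand: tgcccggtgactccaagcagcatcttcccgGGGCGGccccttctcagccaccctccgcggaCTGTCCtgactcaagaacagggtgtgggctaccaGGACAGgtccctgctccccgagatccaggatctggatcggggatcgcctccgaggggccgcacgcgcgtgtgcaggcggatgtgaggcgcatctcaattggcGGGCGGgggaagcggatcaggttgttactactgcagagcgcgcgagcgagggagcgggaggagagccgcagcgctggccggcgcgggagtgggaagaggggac
Cplx1, chr5:108549978-108550277, minus strand: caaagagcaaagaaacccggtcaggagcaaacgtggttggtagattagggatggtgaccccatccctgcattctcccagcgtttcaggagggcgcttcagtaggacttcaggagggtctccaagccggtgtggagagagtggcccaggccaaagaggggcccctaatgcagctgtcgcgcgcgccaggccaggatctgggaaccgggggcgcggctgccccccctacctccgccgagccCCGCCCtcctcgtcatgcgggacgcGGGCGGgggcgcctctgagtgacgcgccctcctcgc
Stx1a, chr5:135023232-135023531, plus strand: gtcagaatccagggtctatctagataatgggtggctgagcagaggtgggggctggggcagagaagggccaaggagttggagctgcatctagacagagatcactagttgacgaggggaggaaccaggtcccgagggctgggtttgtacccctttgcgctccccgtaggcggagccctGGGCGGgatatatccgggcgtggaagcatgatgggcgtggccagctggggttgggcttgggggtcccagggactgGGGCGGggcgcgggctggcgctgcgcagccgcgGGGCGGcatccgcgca

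A GC box in either direction occurred 4 times in the upstream and 2 times in the downstream Syt2 window, 2 times for Cplx1 and 3 times for Stx1a. Of 32817 promoter windows of the same length, 35.6% held one. The REST piece was found 1 time and 2 times in the Syt2 windows, was not found in those of Cplx1 or Stx1a, and was held by 22.2% of all windows. None of the motifs searched is contained in another. On both strands, the TATA box TATAAA (13.6% of all windows), the E-box CACGTG (7.15%), the cAMP response element TGACGTCA (1.79%) and a second REST piece, TCAGCACC (1.65%), were in none of the 8 windows of the 6 genes with an entry. The Cplx2 window, at 54302306 to 54302605 of chromosome 13, had no GC box and lies outside the GENCODE gene model given above. The sequence at the start of that model, 54371349, was not searched. The windows of Cplx2, Vamp1 (1 GC box) and Syt1 (1 GC box and 1 GGACAG in the first of its windows) are not printed. Snap25 and Vamp2 had no entry. Such matches describe letters only.

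Snap25 and Syt1 were read in nearly every neuron, while Stx1a, Cplx1, Cplx2 and Syt2 were read in very different shares of the classes. Snap25 had a read in 98.8% of GABAergic-like, 97.5% of SPN-like and 100% of glutamatergic-like nuclei, and Syt1 in 98.8%, 92.5% and 99.1% of the same classes. Stx1a had a read in 30 of 245 GABAergic-like nuclei (12.2%) and 19 of 160 SPN-like nuclei (11.9%), against 77 of 108 glutamatergic-like nuclei (71.3%, exact 95% interval 61.8 to 79.6%). Syt2 was read in 51 of 125 Pvalb-like nuclei (40.8%, exact 95% interval 32.1 to 49.9%) and in 2 of 82 Sst-like nuclei (2.44%), and Vamp1 in 36.8% and 19.5% of the same kinds. Median depths were 248689 counts in Pvalb-like, 259994 in Sst-like, 250193 in GABAergic-like and 247524 in glutamatergic-like nuclei.

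**Figure D1:**
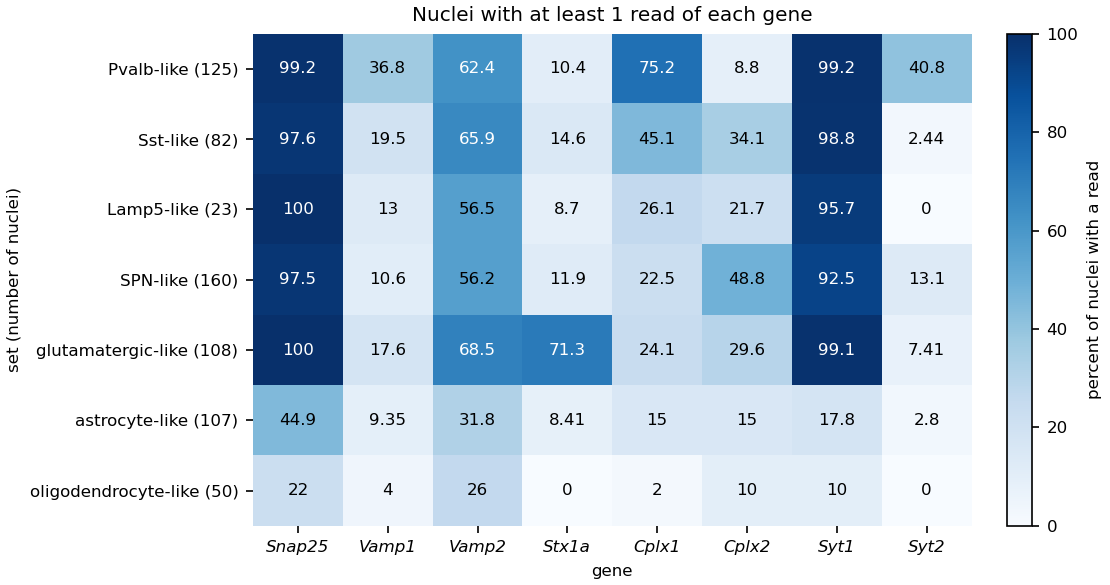
Percent of nuclei with at least 1 read of each gene (columns) in 7 sets of nuclei (rows, number of nuclei in brackets), as colour and number. Stx1a stands at 71.3% in glutamatergic-like nuclei, Syt2 at 40.8% in Pvalb-like nuclei, and Snap25 still at 44.9% in astrocyte-like nuclei.

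As a background for these shares, 3 of 107 astrocyte-like nuclei held a Syt2 read (2.80%) and 9 held an Stx1a read (8.41%), at a median of 300655 counts, and none of 50 oligodendrocyte-like nuclei held either, which allows a share of up to 6.00% at 3 nuclei of 50. The shares of Stx1a in GABAergic-like and SPN-like nuclei have intervals (8.42 to 17.02% and 7.30 to 17.9%) that overlap that of astrocyte-like nuclei (3.92 to 15.4%) but lie above the limit in oligodendrocyte-like nuclei, so they are not separated from the higher of these backgrounds at this depth. All intervals cover counting error only and treat nuclei as independent.

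**Figure D2:**
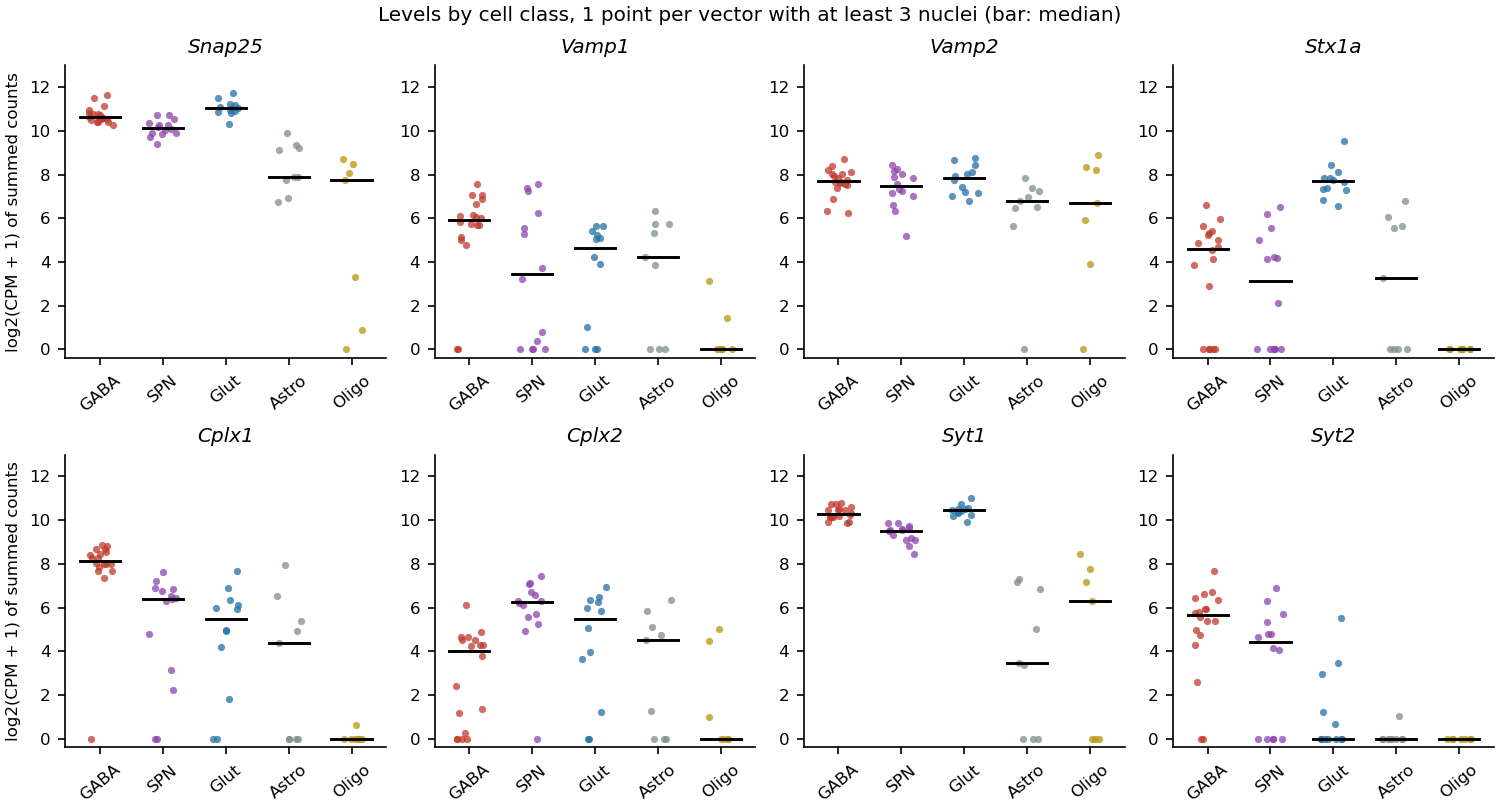
Level of each gene in log2(CPM + 1) of summed counts (y axis) in GABAergic-like, SPN-like, glutamatergic-like, astrocyte-like and oligodendrocyte-like nuclei (x axis), 1 point per vector with at least 3 nuclei of the class and a bar at the median. Stx1a is highest in the glutamatergic-like sums, and Syt2 lies at 0 in all 7 oligodendrocyte-like sums.

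Per length, which allows genes to be compared, Snap25 was the highest of the 8 in each neuron class. Its mean CPM per kilobase of merged exons was 259 ± 77.4 in GABAergic-like (SD, n = 18 vectors), 172 ± 44.9 in SPN-like (n = 14) and 322 ± 80.3 in glutamatergic-like sums (n = 12). Syt1 followed at 157 ± 31.5, 82.4 ± 20.9 and 169 ± 33.5 CPM per kilobase in the same order of classes. In GABAergic-like sums Cplx1 (132 ± 52.2 CPM per kilobase) lay within the spread of Syt1, and in Pvalb-like sums it reached 195 ± 51.0, against 157 ± 42.0 for Syt1 (SD, n = 15 vectors). Syt2 in Pvalb-like sums stood at 15.4 ± 9.99 CPM per kilobase. These values take exon length only, and the treatment of introns is not given in the sources used here.

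Between GABAergic-like and glutamatergic-like sums of 12 vectors, 1 of the 8 genes passed the test, Stx1a, while 2.72% of 8734 genes tested passed (1.34% higher, 1.39% lower). The median log2 fold change was -0.29 over the 8 genes and 0.18 over all tested. Stx1a, the plasma membrane syntaxin, had 0 to 61.2 CPM in GABAergic-like sums (median 19.6, 5 of 12 at 0), against 92.4 to 748 CPM in glutamatergic-like sums (median 207). The groups did not overlap, and GABAergic-like was lower in 12 of 12 vectors. Summed over nuclei, Stx1a was 410 CPM in L2/3 IT-like and 178 CPM in the other glutamatergic-like nuclei. Stx1a fell to a mean of 20.4 ± 21.3 CPM in GABAergic-like sums, against 245 ± 173 CPM in glutamatergic-like sums (SD, n = 12), a log2 fold change of -5.06 ± 1.17 (SE; edgeR quasi-likelihood test with Benjamini-Hochberg adjustment, adjusted p = 0.0114). In library series S40326 alone, with 6 vectors, the Stx1a log2 fold change was -3.76 and the adjusted p 0.412, and without runs holding SPN-like nuclei, with 5 vectors, -5.08 and 0.525.

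The remaining SNAREs did not pass in this comparison. Snap25, the plasma membrane SNARE that gives 2 of the 4 helices, averaged 1882 ± 597 CPM in GABAergic-like and 2188 ± 545 CPM in glutamatergic-like sums (adjusted p = 0.252, edgeR). The vesicle SNAREs were Vamp1, with 72.0 ± 57.4 CPM in GABAergic-like and 22.9 ± 19.8 CPM in glutamatergic-like sums (adjusted p = 0.820, edgeR), and Vamp2, with 222 ± 104 and 240 ± 109 CPM in the same order (adjusted p = 0.927, edgeR). Each of these genes had overlapping ranges in the 2 classes. The Snap25 log2 fold change was -0.39 ± 0.15 (SE), with 9 of 12 vectors lower.

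Cplx1 had 0 to 463 CPM in GABAergic-like sums (median 283) and 0 to 203 CPM in glutamatergic-like sums (median 45.7), and was higher in 11 of 12 vectors. Its means, 281 ± 126 and 56.2 ± 59.1 CPM (SD, n = 12), gave a log2 fold change of 2.72 ± 0.95 (SE) that missed the threshold (adjusted p = 0.167, edgeR). DESeq2 gave Cplx1 an adjusted p of 0.00223, and leaving out hI56i gave 0.0386 in edgeR. Cplx2 averaged 13.4 ± 20.3 CPM in GABAergic-like and 45.3 ± 41.1 CPM in glutamatergic-like sums (adjusted p = 0.636, edgeR).

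Of the calcium sensors, Syt1 averaged 1295 ± 286 CPM in GABAergic-like and 1407 ± 280 CPM in glutamatergic-like sums (adjusted p = 0.718, edgeR). Syt2 averaged 59.8 ± 57.7 CPM in GABAergic-like sums, against 5.27 ± 12.7 CPM in glutamatergic-like sums, of which 7 of 12 were at 0. It was higher in 9 of 12 vectors and lower in 2, with a log2 fold change of 6.70 ± 2.09 (SE; adjusted p = 0.0955, edgeR). DESeq2 gave Syt2 an adjusted p of 1.28e-07, and leaving out CMV gave 0.0225 in edgeR. Fitted folds of genes with many zero sums depend on the prior count, so the mean CPM values are the better guide to size.

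SPN-like nuclei were set against both other neuron classes. Against GABAergic-like sums (12 vectors) 1 of the 8 genes passed, Syt1, while 6.64% of 8879 genes passed (3.01% higher, 3.64% lower; median log2 fold change -1.41 over the 8 and -0.43 over all). Syt1 had 345 to 940 CPM in SPN-like sums (median 727), against 943 to 1776 CPM in GABAergic-like sums (median 1192). The ranges did not overlap, with the highest SPN-like sum just below the lowest GABAergic-like sum. Syt1 fell to a mean of 700 ± 174 CPM in SPN-like sums, against 1286 ± 272 CPM in GABAergic-like sums (SD, n = 12), a log2 fold change of -0.78 ± 0.22 (SE; edgeR, adjusted p = 0.0270). The Syt1 call was lost without AiE0078h, AiE0140h or AiE0387m (highest adjusted p = 0.0517, edgeR), and in series S40326 alone, with 7 vectors, the log2 fold change was -0.49 (adjusted p = 0.399).

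The complexins did not pass in this comparison. The Cplx1 mean was 80.3 ± 61.2 CPM in SPN-like sums, against 307 ± 126 CPM in GABAergic-like sums, with 11 of 12 vectors lower (log2 fold change -2.05 ± 0.72, SE; adjusted p = 0.0971, edgeR). Cplx2 averaged 76.0 ± 46.6 CPM in SPN-like sums, against 9.20 ± 10.5 CPM in GABAergic-like sums, and was higher in 11 of 12 vectors (log2 fold change 5.002 ± 1.69, SE; adjusted p = 0.0822, edgeR). DESeq2 gave adjusted p-values of 0.00164 for Cplx1, 2.54e-06 for Cplx2, 0.00307 for Stx1a and 0.0185 for Vamp1, and in series S40326 alone edgeR gave Cplx1 a log2 fold change of -2.62 (7 vectors, adjusted p = 0.0341). Snap25 averaged 1161 ± 331 CPM in SPN-like and 1673 ± 418 CPM in GABAergic-like sums (log2 fold change -0.45 ± 0.18, SE; adjusted p = 0.187, edgeR). Vamp1 (56.0 ± 72.3 and 78.3 ± 52.0 CPM), Vamp2 (191 ± 92.5 and 235 ± 93.0 CPM), Stx1a (18.3 ± 30.9 and 31.5 ± 28.4 CPM) and Syt2 (28.3 ± 37.3 and 50.0 ± 35.2 CPM, SPN-like first in each) had adjusted p-values of 0.526 or more in edgeR.

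Against glutamatergic-like sums (9 vectors) 3 of the 7 genes tested passed, Stx1a, Syt1 and Snap25, each lower in SPN-like sums in 9 of 9 vectors, while 3.08% of 7594 genes passed (1.44% lower). Over all genes the median log2 fold change came to 0.04 with TMM and -0.08 with RLE scaling, and the same 3 genes passed with RLE. This comparison shares its SPN-like sums with the preceding one. Neither of them has a check by run, and the part of the run in their calls was not tested. Stx1a had 0 to 72.4 CPM in SPN-like sums (5 of 9 at 0), against 92.4 to 748 CPM in glutamatergic-like sums (median 164). The groups did not overlap. Stx1a averaged 13.8 ± 23.5 CPM in SPN-like and 231 ± 199 CPM in glutamatergic-like sums (SD, n = 9; log2 fold change -6.66 ± 1.45, SE; adjusted p = 0.00993, edgeR).

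Syt1 had 345 to 848 CPM in SPN-like sums (median 647), against 951 to 2062 CPM in glutamatergic-like sums (median 1378), again without overlap. Its log2 fold change was -1.14 ± 0.25 (SE; adjusted p = 0.00934, edgeR). Snap25 had 681 to 1699 CPM in SPN-like sums (median 1035), against 1273 to 2922 CPM in glutamatergic-like sums (median 1964), with overlapping ranges and a log2 fold change of -0.88 ± 0.20 (SE; adjusted p = 0.0138, edgeR). Without AiE0140h the Snap25 adjusted p was 0.0503. In series S40326 alone, with 5 vectors, the log2 fold changes were -4.03 for Stx1a, -1.07 for Syt1 and -0.62 for Snap25, and the adjusted p-values 0.739, 0.178 and 0.654 (edgeR). Vamp2, Vamp1, Cplx1 and Cplx2 had adjusted p-values of 0.978 or more, and Syt2 was below the filter on low counts, with 31.9 ± 42.4 CPM in SPN-like and 1.95 ± 3.80 CPM in glutamatergic-like sums.

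**Figure D3:**
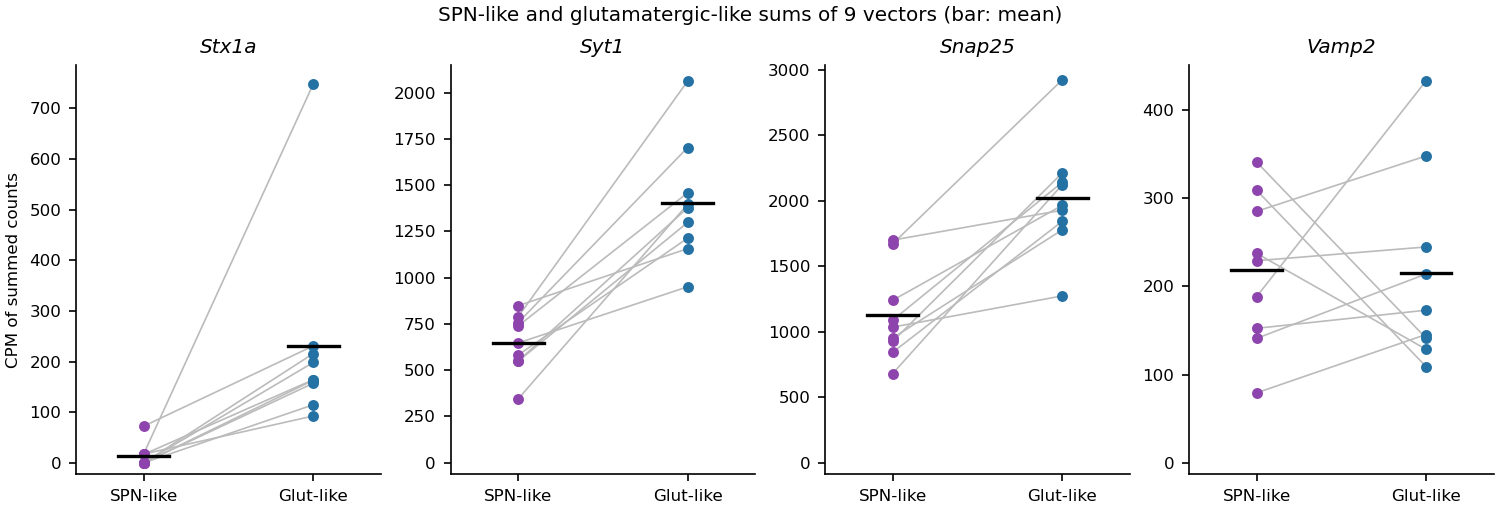
CPM of summed counts (y axis) in SPN-like and glutamatergic-like nuclei (x axis) for 4 genes, 1 line per vector (9 vectors) and a bar at the mean. Stx1a, Syt1 and Snap25 are lower in the SPN-like sum of each of the 9 vectors, while Vamp2 goes both ways.

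Among interneurons, Syt2 separated Pvalb-like from Sst-like nuclei. In the comparison of 11 vectors 1 of the 6 genes tested passed, Syt2, while 0.234% of 7689 genes passed (0.13% higher, 0.104% lower; median log2 fold change 0.83 over the 6 and 0.47 over all). Syt2 had 11.5 to 309 CPM in Pvalb-like sums (median 139), against 0 CPM in 10 of the 11 Sst-like sums and 9.07 CPM in the other. The groups did not overlap. The means were 130 ± 82.7 CPM in Pvalb-like and 0.824 ± 2.73 CPM in Sst-like sums (SD, n = 11), higher in 11 of 11 vectors, with a fitted log2 fold change of 9.72 ± 1.47 (SE; edgeR, adjusted p = 0.00151). In series S40326 alone, with 7 vectors, the Syt2 log2 fold change was 9.01 and the adjusted p 0.177, and without runs holding SPN-like nuclei, with 8 vectors, 9.63 and 0.0176.

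All 51 Pvalb-like nuclei with a Syt2 read also held a Pvalb read, the calcium-binding protein that marks this kind, which was found in 92 of the 125. In 4 Pvalb-like clusters, Syt2 was read in 25 of 36 nuclei (69.4%), 19 of 43 (44.2%), 6 of 27 (22.2%) and 1 of 19 (5.26%), in the same order as Pvalb, read in 88.9%, 79.1%, 63.0% and 47.4% of them. The clusters of 36 and 43 nuclei had Pvalb among their leading genes, while those of 27 and 19 nuclei were named through Tac1. In runs with an SPN-like nucleus 13 of 29 Pvalb-like nuclei held Syt2 (44.8%), and in runs without one 38 of 96 (39.6%). Among Lamp5-like interneurons Syt2 was read in 0 of 23 nuclei, which allows a share of up to 13.04% at 3 nuclei of 23. It was read in 21 of 160 SPN-like nuclei (13.1%), of which 1 also held Pvalb. Thinned to 150000 counts, which left out the shallower nuclei, Syt2 was read in 40.2% of 117 Pvalb-like and 12.8% of 148 SPN-like nuclei.

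Cplx1 was higher in the Pvalb-like sum of 11 of 11 vectors but did not pass. It had 228 to 557 CPM in Pvalb-like sums (median 434), against 14.3 to 313 CPM in Sst-like sums (median 158), with overlapping ranges. The means of 413 ± 115 and 161 ± 94.5 CPM gave a log2 fold change of 1.65 ± 0.48 (SE; adjusted p = 0.267, edgeR), and DESeq2 gave 0.00305. Cplx2 was below the filter, with 2.53 ± 4.50 CPM in Pvalb-like and 37.9 ± 36.3 CPM in Sst-like sums. Summed over nuclei, Sst-like Cplx2 was 8.04 CPM in runs with an SPN-like nucleus and 65.8 CPM in runs without one, and Sst-like Cplx1 was 272 and 133 CPM, while Pvalb-like Cplx1 was 469 and 381 CPM. The part of the run in these levels was not tested. Snap25 (1811 ± 464 and 1507 ± 737 CPM), Vamp1 (69.0 ± 43.6 and 53.7 ± 50.2 CPM), Vamp2 (170 ± 113 and 190 ± 131 CPM) and Syt1 (1314 ± 401 and 1356 ± 350 CPM, Pvalb-like first in each) had adjusted p-values of 0.896 or more.

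**Figure D4:**
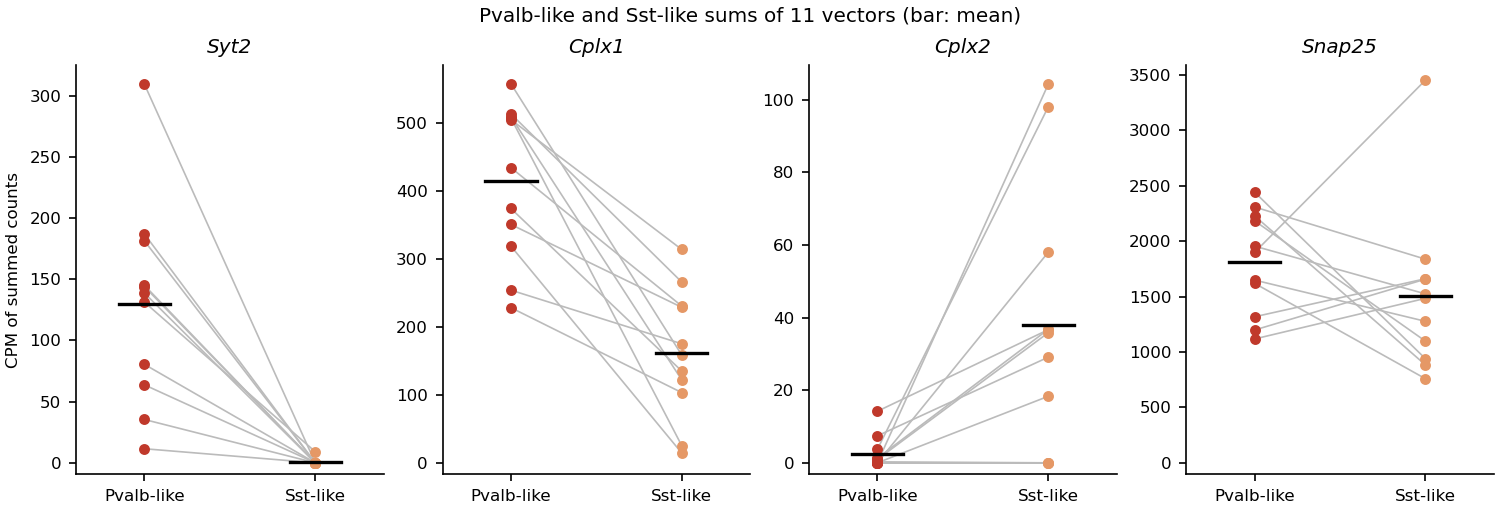
CPM of summed counts (y axis) in Pvalb-like and Sst-like nuclei (x axis) for 4 genes, 1 line per vector (11 vectors) and a bar at the mean. Syt2 and Cplx1 are higher in the Pvalb-like sum of all 11 vectors, and 10 of the 11 Sst-like sums hold no Syt2 read.

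Shares within a paralog pair do not depend on the scaling between classes. Of 9 such tests (3 pairs in 3 comparisons, exact two-sided sign-flip permutation test over vectors, Benjamini-Hochberg over the 9), 5 passed. Cplx1 made up 94.5 ± 8.76% of the complexin pair's reads in GABAergic-like sums, against 46.4 ± 34.7% in glutamatergic-like sums, higher in 10 of 11 vectors (exact permutation test, adjusted p = 0.00586). Vectors counted equally, whatever their reads, and those without a read of the pair in either sum were left out. Some glutamatergic-like shares rested on 1 nucleus. AiE0447h had 108 Cplx1 reads from 1 nucleus and 0 of Cplx2, and AiE0450h had 15 Cplx2 reads from 1 nucleus and 0 of Cplx1. The glutamatergic-like mean is therefore not a level shared by its nuclei, and the class was mixed here. Summed over nuclei, Cplx1 and Cplx2 were 1.30 and 50.3 CPM in 27 L2/3 IT-like nuclei and 76.9 and 45.4 CPM in the other 81, a difference that was not tested. In SPN-like sums the Cplx1 share fell to 47.4 ± 18.7%, against 97.1 ± 3.45% in GABAergic-like sums, lower in 10 of 10 vectors (exact permutation test, adjusted p = 0.00586; the unadjusted 0.00195 is the smallest the design allows). In Pvalb-like sums Cplx1 reached 99.3 ± 1.34%, against 78.9 ± 24.2% in Sst-like sums, higher in 8 of 11 vectors and lower in 1 (exact permutation test, adjusted p = 0.0176).

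For the synaptotagmin pair, Syt2 made up 4.66 ± 4.76% of the reads in GABAergic-like sums, against 0.381 ± 0.933% in glutamatergic-like sums (12 vectors, exact permutation test, adjusted p = 0.0176). In Pvalb-like sums the Syt2 share was 9.72 ± 6.81%, against 0.0533 ± 0.177% in Sst-like sums, higher in 11 of 11 vectors (exact permutation test, adjusted p = 0.00586). The Vamp1 share was 25.3 ± 18.2% in GABAergic-like and 9.36 ± 7.93% in glutamatergic-like sums (exact permutation test, adjusted p = 0.0593) and did not pass in any of the 3 comparisons. In series S40326 alone none of the 9 shares passed, and without runs holding SPN-like nuclei 1 of 6 did.

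**Figure D5:**
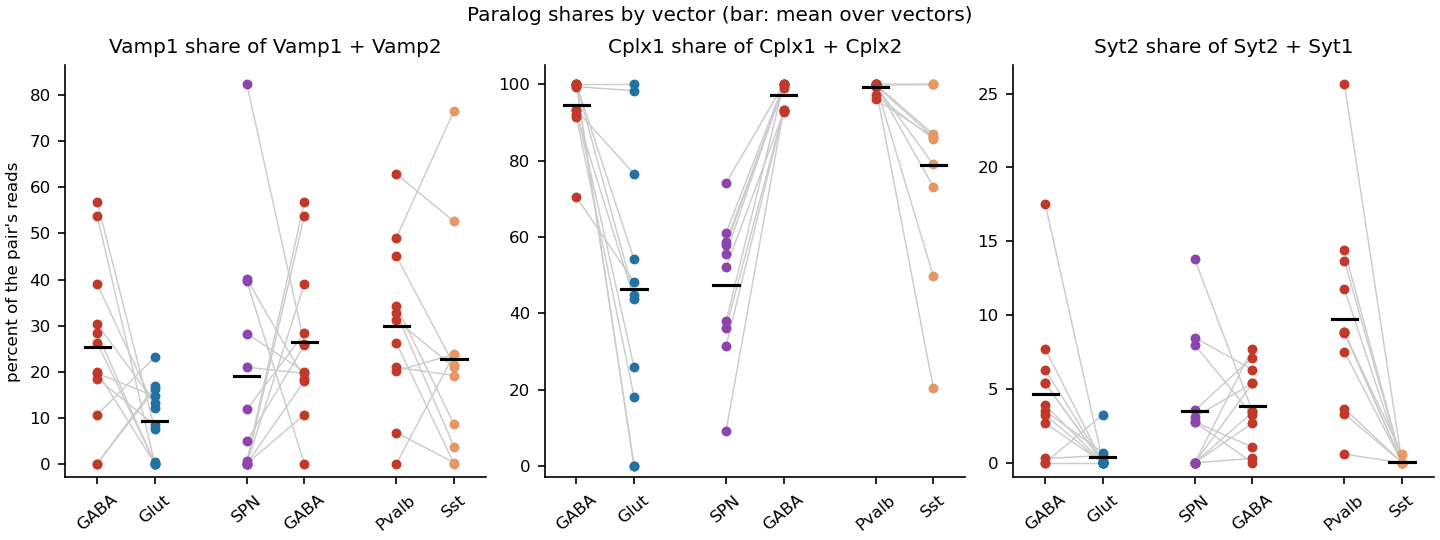
Percent of a pair's reads that came from Vamp1, Cplx1 or Syt2 (y axis) in GABAergic-like and glutamatergic-like, SPN-like and GABAergic-like, and Pvalb-like and Sst-like sums (x axis), 1 line per vector and a bar at the mean. The Cplx1 share is 94.5% or more on average in the GABAergic-like and Pvalb-like sums and near 50% in SPN-like and glutamatergic-like sums, with wide spread in the glutamatergic-like ones.

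In single nuclei the complexin paralogs were counted alone and together. Cplx1 was read in 75.2% of Pvalb-like and 22.5% of SPN-like nuclei, and Cplx2 in 8.8% and 48.75%. Whether both were read together more or less often than these shares give was not tested. Of 125 Pvalb-like nuclei, 85 held Cplx1 without Cplx2, 2 held Cplx2 without Cplx1, 9 held both and 29 neither. Of 160 SPN-like nuclei, 16 held Cplx1 alone, 58 Cplx2 alone, 20 both and 66 neither. All 51 Syt2 nuclei of the Pvalb-like kind also held Syt1, as did 20 of the 21 SPN-like ones. Syt1 was read in 99.2% of all Pvalb-like and 92.5% of all SPN-like nuclei, so these counts cannot show a pairing of the 2 genes. A gene without a read in a nucleus may still be expressed below this depth.

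Across the 513 neuronal-like nuclei, Pearson's r of log2(CPM + 1) with a gene outside the set reached 0.4 for 3 of the 8. Stx1a was most like Slc17a7 (r = 0.55), the vesicular glutamate transporter, then Car10 (r = 0.43) and Fam19a1 (r = 0.41). Cplx1 and Syt2 were each most like Pvalb (r = 0.48 and 0.49). Slc17a7, a marker used to name the glutamatergic-like class, was read in 102 of its 108 nuclei and in 74 of the 77 with Stx1a. In GABAergic-like nuclei it was read in 11 of all 245 and in 4 of the 30 with Stx1a. Among the 8 genes themselves the highest r was 0.23, between Cplx1 and Syt2. Nuclei share vector and depth, genes were chosen by this rule over 8787 genes, and the values are a description.

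Neuronal-like sums were set against non-neuronal-like (astrocyte-like and oligodendrocyte-like) sums in 15 vectors. Of the 8 genes, 6 passed and all 6 were higher in neuronal-like sums, Snap25, Vamp1, Stx1a, Cplx1, Syt1 and Syt2, while 31.6% of 9675 genes passed in that direction (33.7% in either direction). Median log2 fold changes were 4.83 over the 8 genes and 2.65 over all. Syt1 averaged 1077 ± 296 CPM in neuronal-like sums, against 99.8 ± 128 CPM in non-neuronal-like sums (SD, n = 15), higher in 15 of 15 vectors without overlap (log2 fold change 5.25 ± 1.06, SE; adjusted p = 0.000270, edgeR). Syt2 averaged 36.4 ± 18.9 and 0.993 ± 3.61 CPM in the same order, with 13 of 15 non-neuronal-like sums at 0 (adjusted p = 2.15e-05, edgeR). Stx1a (61.0 ± 47.2 and 19.1 ± 28.4 CPM, adjusted p = 0.0189), Cplx1 (169 ± 97.7 and 43.0 ± 85.7 CPM, adjusted p = 0.00420) and Vamp1 (52.5 ± 31.7 and 16.7 ± 25.1 CPM, adjusted p = 0.0342, edgeR, neuronal-like first in each) had overlapping ranges. Vamp2 (221 ± 65.8 and 146 ± 116 CPM, adjusted p = 0.230) and Cplx2 (41.7 ± 34.7 and 18.96 ± 26.3 CPM, adjusted p = 0.140, edgeR) did not pass, while DESeq2 gave Cplx2 an adjusted p of 0.000178. In series S40326 alone (8 vectors) the adjusted p was 0.00880 for Syt1 and 0.00623 for Syt2, and in series S40324 alone (6 vectors) it was 0.00174 for Syt1, with Syt2 below the filter (edgeR). Without runs holding SPN-like nuclei (9 vectors) Snap25, Cplx1 and Syt1 passed, Stx1a had an adjusted p of 0.227 and Vamp1 of 0.611, and Syt2 was below the filter. Without the vector as a block 3 of the 8 passed, Snap25, Syt1 and Syt2, and Vamp1 lost its call when any of 7 of the 15 vectors was left out, AiE0140h, AiE0391h, AiE0401h, AiE0410m, AiE0445h_3xC2, AiE0682h or hI56i (highest adjusted p = 0.0707, edgeR).

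Snap25 was also read in glial classes. It averaged 1545 ± 346 CPM in neuronal-like and 438 ± 522 CPM in non-neuronal-like sums, higher in 14 of 15 vectors (log2 fold change 2.73 ± 0.71, SE; adjusted p = 0.00334, edgeR), and was read in 48 of 107 astrocyte-like (44.9%) and 11 of 50 oligodendrocyte-like nuclei (22%). The Snap25 fold lies near the median log2 fold change of 2.65 over all genes in this fit. Without the vector as a block that median was 0.46. The neuronal RNAs Meg3 and Snhg11 each had a read in 511 of 513 neuronal-like nuclei (99.6%), against 12 of 157 non-neuronal-like nuclei for Meg3 (7.64%) and 58 for Snhg11 (36.9%). The 155 non-neuronal-like nuclei with Meg3 below 5292 CPM, percentile 5 of its levels in neuronal-like nuclei, summed to 540 CPM of Snap25 and 77.1 CPM of Syt1. The part of neuronal RNA in these values was not tested.

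Of the wider fusion machinery, 67 SNARE, complexin, synaptotagmin and SNARE regulator genes were listed and 66 found. In GABAergic-like against glutamatergic-like sums 46 were tested and 0 passed in edgeR, with 5 at an unadjusted p under 0.05, while DESeq2 passed 2 with a higher and 4 with a lower level. These 46 had a median log2 fold change of -0.29, against 0.18 over all genes. That list does not hold the 8 genes themselves. In SPN-like against GABAergic-like sums 3 of 48 passed, or 6.25%, near the 6.64% of all genes, while DESeq2 passed 3 with a higher and 9 with a lower level (median log2 fold change -0.28, against -0.43 over all genes). Unc13c, a vesicle priming factor, averaged 537 ± 124 CPM in SPN-like and 91.3 ± 106 CPM in GABAergic-like sums (higher in 12 of 12 vectors, adjusted p = 0.00836, edgeR). Syt6 averaged 200 ± 127 and 53.1 ± 140 CPM in the same order (adjusted p = 0.00246, edgeR), and Syt13 0.515 ± 1.78 and 110 ± 72.7 CPM (lower in 12 of 12, adjusted p = 1.84e-05, edgeR). Unc13c did not pass in series S40326 alone (adjusted p = 0.0716), nor Syt6 without the vector as a block (0.283), and Syt13 fell below the filter without AiE0387m.

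The same 3 genes passed of 47 tested in SPN-like against glutamatergic-like sums, which share SPN-like nuclei, where 3.08% of all genes passed. Unc13c averaged 515 ± 127 CPM in SPN-like and 3.43 ± 7.06 CPM in glutamatergic-like sums, and Syt6 221 ± 135 and 48.8 ± 76.7 CPM. Syt6 lost its call in 6 of 9 fits without 1 vector (AiE0140h, AiE0401h, AiE0447h, AiE0450h, AiE0475m or hI56i, highest adjusted p = 0.129, edgeR) and, with an adjusted p of 0.590, without the vector as a block, as well as with at least 5 nuclei, at least 500 or 2000 genes and in series S40326 alone. Syt13 had no read in the 90 SPN-like nuclei, below 0.134 CPM over their sum at a floor of 3 counts, against 157 ± 79.5 CPM in glutamatergic-like sums. In Pvalb-like against Sst-like sums 1 of 46 passed, against 0.234% of all genes, and DESeq2 passed 2 with a higher and 4 with a lower level. This was Unc13c in edgeR, with 7.34 ± 15.6 CPM in Pvalb-like and 487 ± 524 CPM in Sst-like sums (lower in 9 of 11 vectors, adjusted p = 0.00251, edgeR). It fell below the filter without AiE0452h, without hSyn1, without runs holding SPN-like nuclei, with classes from a marker score, after thinning and with Pvalb-led clusters alone. In neuronal-like against non-neuronal-like sums 22 of 51 were higher, while 31.6% of all genes were, and the count was 33 in DESeq2, 9 without the vector as a block, 13 without runs holding SPN-like nuclei and 3 in series S40324 alone. Among the 22 were Stxbp5l (183 ± 59.96 and 2.39 ± 8.85 CPM), Syt13 (68.3 ± 51.0 and 3.70 ± 14.3 CPM), Syt3 (103 ± 67.0 and 3.42 ± 10.3 CPM), Syt14 (72.9 ± 49.3 and 8.64 ± 29.5 CPM) and Syt6 (83.6 ± 83.5 and 3.85 ± 10.2 CPM, neuronal-like first in each). Stxbp3, a syntaxin-binding protein, was the 1 lower gene, with 20.3 ± 33.4 CPM in neuronal-like and 154 ± 188 CPM in non-neuronal-like sums (adjusted p = 0.0396, edgeR). That call was lost in 10 of 15 fits without 1 vector (AiE0140h, AiE0390m, AiE0445h_3xC2, AiE0447h, AiE0682h, AiE0743m_3xC2, AiE0779m, CMV, DLX2.0 or hI56i, highest adjusted p = 0.0708, edgeR), in either series alone, with marker scores, without runs holding SPN-like nuclei and, with an adjusted p of 0.0673, without the vector as a block.

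Sums over all 40 nuclei of a vector are given beside its classes, as a description with no test. Snap25 ran from 624 CPM in AiE0410m to 2442 CPM in hSyn1 (median of 20 vectors 1161) and Syt1 from 190 CPM in AiE0410m to 1383 CPM in AiE0401h (median 748). AiE0410m, with 7 neuronal-like nuclei of 40, was also lowest for Stx1a (6.71 CPM), Cplx1 (13.4 CPM) and Syt2 (2.47 CPM). These 7 were SPN-like, while 4 nuclei were oligodendrocyte-like and 0 astrocyte-like. The rest lay below the gene filter or in the unnamed cluster, and such nuclei count in the sums of every vector. Of the 6324 Snap25 reads of AiE0410m, 1739 came from its SPN-like nuclei. Stx1a was highest in hSyn1 (189 CPM), which held 26 glutamatergic-like nuclei, against a median of 36.5 CPM. All 40 hSyn1 nuclei belong to library series S40323, which has 72 nuclei. The others in it come from AiE0390m, AiE0410m, CMV and DLX2.0. No hSyn1 nucleus lies in another series, and the part of the series in the hSyn1 levels was not tested.

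Cplx1 was highest in AiE0475m (372 CPM, median 134), where 17 of 40 nuclei were Pvalb-like, and Cplx2 in AiE0779m (91.4 CPM, median 37.5), where 21 were SPN-like. Syt2 was highest in AiE0078h (62.0 CPM, median 20.5), with 8 Pvalb-like and 15 SPN-like nuclei, while AiE0475m and AiE0600m, with 17 and 20 Pvalb-like nuclei, had 18.8 and 52.0 CPM. Vamp1 ran from 0.164 CPM in AiE0779m to 87.9 CPM in AiE0600m, and Vamp2 from 98.7 CPM in AiE0140h to 298 CPM in AiE0450h. Taken as mean CPM over the 40 nuclei, the highest vector changed for Vamp2 (hSyn1, 460 CPM, against 252 CPM in AiE0450h). It also changed for Syt1 (AiE0452h, 1392 CPM, against 1211 CPM in AiE0401h). Vamp1 was then alike in AiE0475m and AiE0600m (88.73 and 88.70 CPM), and Snap25 lowest in AiE0447h (681 CPM). The remaining highest and lowest vectors stayed. Of the 160 vector levels, 87 were counted as moved and 73 as the same. In such sums and means more nuclei of a class and more RNA per nucleus cannot be told apart.

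The 102 nuclei with fewer than 1000 genes and the unnamed cluster entered no comparison. In the 102, Snap25 was read in 20.6% and Syt2 in none, which allows a share of up to 2.94% at 3 nuclei of 102. In the 28 nuclei of the unnamed cluster, Cplx1 was read in 60.7% and Syt2 in 17.9%.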

How the data were processed

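The authors deposited a table of whole-number read counts per gene, 1 column per nucleus, and the 800 columns whose library names match the labels were used, while 1701 columns without a label were not. Alignment with STAR 2.7.2a to mm10 is given per the submitters' processing notes, and neither the annotation nor the counting rule is given in the sources used here. SMART-Seq v4 with Nextera XT, per the labels' protocols, keeps no strand and no molecule barcodes, so overlapping genes are not separated and p-values rest on reads. Identifiers were matched to symbols for 32158 of 32285 genes, and Vamp7 had no match.

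The 8 genes, the gene lists and the markers were chosen with earlier results of these data known. The named genes were the 8 in every comparison, up to 5 called genes per direction from the wider list, and the 3 genes most like each of the 8 where r reached 0.4. Nuclei with at least 1000 genes were clustered (scanpy 1.11.5, leidenalg 0.10.2, 2000 variable genes, 30 components, 15 neighbours, resolution 1), leaving out 178 genes that include the 8 and the wider list. A cluster was named where at least 3 markers were detected in 25% of its nuclei and its top 10 genes held at least 1 of them and no more of another class. No doublet caller was run, since 1 nucleus was sorted per library. Classes rest on other genes of the same nuclei.

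Summed counts per vector and class, from vectors holding at least 3 nuclei of both classes, were tested over all genes with edgeR 4.0.16 (R 4.3.3, TMM, filterByExpr, quasi-likelihood test, vector as a block, Benjamini-Hochberg, threshold 0.05). The fit was also run on simulated counts, drawn without a vector effect and at the dispersion of the real sums. Such counts cannot show how the fit handles differences between vectors. Sums were paired through their vector, which is the only link the labels give. SE is the size of the log2 fold change divided by the root of the F statistic. DESeq2 1.42.0, other filters, classes and library series were alternatives. 0 of the 800 nuclei held identical values. Proportions have exact Clopper-Pearson 95% intervals, and the limit printed for a count of 0 is 3 counts of the total. Thinning to 150000 counts left out 35 of 698 nuclei. Other software was scipy 1.17.1 with numpy 2.4.6, pandas 2.3.3, matplotlib 3.10.9 and igraph 0.11.9 under Python 3.11.15.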

Additional observations from a re-analysis of the deposited data

Results flagged for a closer look

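Of 16 groups of 9 vector sums (8 genes in SPN-like and in glutamatergic-like nuclei), 2 held a sum far from the others, both for Stx1a. The rule marks about 1 in 20 groups of normally spread values by chance. Its rate for sums with many zeros, as for Stx1a in SPN-like nuclei, is not known. Comparisons with more vectors were not searched by this rule. The SPN-like sum of AiE0682h stood at 72.4 CPM (13 nuclei), against 18.05 CPM for the next SPN-like sum. The glutamatergic-like sum of AiE0450h stood at 748 CPM (4 nuclei), against 231 CPM for the next. Leaving out each vector in turn kept the Stx1a adjusted p between 0.00541 and 0.0351 (edgeR) in SPN-like against glutamatergic-like sums.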

How the results depend on the processing

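The number of the 8 genes called changed as follows, and the cause was not tested. For GABAergic-like against glutamatergic-like sums (1 called), DESeq2 called 3, no filter on low counts, at least 500 genes, at least 2000 genes and classes from a marker score 2 each, and at least 5 nuclei per class, series S40326 alone and leaving out runs with SPN-like nuclei 0 each, with fewer vectors in these last 3. For SPN-like against GABAergic-like sums (1 called), DESeq2 called 5, no filter 3, at least 5 nuclei, at least 500 genes, marker scores and thinning to 150000 counts 2 each, and at least 2000 genes 0. For SPN-like against glutamatergic-like sums (3 called), at least 5 nuclei gave 1 and series S40326 alone 0. For Pvalb-like against Sst-like sums (1 called), DESeq2 gave 2, and at least 5 nuclei, series S40326 and series S40324 alone 0 each. For neuronal-like against non-neuronal-like sums (6 called), series S40324 alone gave 1 and leaving out runs with SPN-like nuclei 3. Leaving out 1 vector at a time gave 1 to 2, 0 to 2, 2 to 3, 1 to 1 and 5 to 6 calls in these 5 comparisons. Fits without the vector block (no replicate block) called 1, 1, 3, 1 and 3 genes, so the pairing by vector changed a count in the last comparison alone.

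Of the 5 paralog shares past the threshold, 0 passed with at least 5 nuclei, in series S40326 or in series S40324 alone, 1 without runs holding SPN-like nuclei, and 5 to 6 with a vector left out. In these subsets few vectors limit the exact test before any adjustment. The smallest p was 0.25 in series S40324 with 3 vectors, where no call was possible, 0.0625 for GABAergic-like against glutamatergic-like sums without runs holding SPN-like nuclei (5 vectors), where none was possible either, and 0.03125 with 6 vectors. The Syt2 share of Syt2 and Syt1 in SPN-like against GABAergic-like sums (difference -0.305 percentage points) turned to 0.514 with marker scores and ran from -1.27 to 0.369 with a vector left out, and the Vamp1 share of Vamp1 and Vamp2 in Pvalb-like against Sst-like sums (7.14) turned to -0.00814 in series S40326 alone. No log2 fold change with an unadjusted p under 0.05 (19 of 37) changed sign under any alternative, while 8 of the other 18 did under at least 1. Restricting the Pvalb-like nuclei to clusters led by Pvalb, an alternative chosen after seeing the data, left Syt2 called. Series S40324 alone gave no value for the comparisons with glutamatergic-like or SPN-like sums, nor did at least 2000 genes for glial ones.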
